A study of Mus musculus with 6 samples.

Results

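The genes described here encode the mitochondrial respiratory chain and the ATP synthase, the machinery of oxidative phosphorylation. They were taken from the array table by gene symbol: names beginning with Nduf, Uqcr, Cox4 to Cox8 or Atp5, together with Sdha, Sdhb, Sdhc, Sdhd, Cyc1 and Cycs. This gave 92 genes of 18193 on the array, read from 184 probe sets. Where a gene had several, the one brightest on average over the 6 arrays stands for it. The 92 comprised 34 subunits of complex I and 8 of its assembly factors, 4 subunits of complex II, 9 of complex III, cytochrome c, 19 genes of complex IV and 17 of the ATP synthase. Ndufa4 and its relative Ndufa4l2 were placed with complex IV, where the NDUFA4 protein is now assigned.

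In the respiratory chain, complexes I and II pass electrons from NADH and succinate to ubiquinone, complex III passes them to cytochrome c, and complex IV reduces oxygen. Complexes I, III and IV pump protons out of the mitochondrial matrix, and the ATP synthase uses their return to make ATP. Haematopoietic stem cells at rest are known for relying little on this pathway, and its use rises when they divide and differentiate.

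Transcripts were measured on 6 Affymetrix arrays, 2 in each of 3 groups of mouse bone marrow cells sorted as GFP+Lin-c-Kit+Sca-1+, a gate that enriches haematopoietic stem and progenitor cells. Vector cells carried an empty GFP vector and no BCR/ABL, BCR/ABL cells expressed the fusion kinase that drives chronic myeloid leukaemia, and BCR/ABL imatinib cells expressed it and came from mice given the kinase inhibitor imatinib. All 3 groups were thus transduced, GFP-positive cells. The series asked which genes BCR/ABL regulates in these cells. No source used here gives the mouse strain or age, the dose or duration of imatinib, or whether paired arrays stem from different animals, so p-values measure only the spread between these arrays, which may be technical.

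Each deposited value is a linear intensity, and levels are given here as log2(intensity + 16) after quantile normalization between arrays, so that the lowest possible level is 4. A difference is a difference of group means on that scale, tested with limma in 1 fit over all 35877 probe sets that carry a gene symbol, and adjusted p-values run over the same 35877. The vector arrays differed most from each other: over all probe sets replicates correlated at 0.971, while the BCR/ABL pair reached 0.990 and the imatinib pair 0.985. The respiratory chain genes repeated more closely than genes in general, most of which were dimmer, and replicate spread at equal brightness was not compared. Their median absolute difference between the 2 arrays of a group was 0.09 for the vector pair, 0.07 for the BCR/ABL pair and 0.11 for the imatinib pair, against 0.25, 0.17 and 0.22 over all genes. Of the 92 genes, 69 had a probe set above the 90th percentile of brightness among those tested, and 7 had a mean level under 7: Cox4i2, Cox7a1, Cox7b2, Cox8b, Cox8c, Ndufa4l2 and Ndufb4. Near the top of an array's range differences can be compressed, and near the floor they are compressed by the added constant.

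Markers of several cell types moved between the groups, and their part in the results below was not tested. Marker values without 1 array were an alternative added after seeing the data. Stem and progenitor cell markers (Kit, which is part of the sorting gate, and Cd34, Flt3, Procr, Hlf, Meis1 and Mecom) were higher with imatinib than in BCR/ABL cells for 7 of 7 genes, with a median difference of 0.83, or 0.48 for 6 of 7 without imatinib replicate 2. Ly6a, which encodes Sca-1, was not read by a probe set with 1 symbol. The summed intensity of the 7 ran from 14767 to 19269 on the imatinib arrays, 10118 to 11921 on the BCR/ABL arrays and 10121 to 15761 on the vector arrays. Mast cell and basophil markers were higher in BCR/ABL than in vector cells for 10 of 10 genes (median 2.47, or 1.64 without vector replicate 2) and higher again with imatinib for 9 of 10 (median 0.82). The sums ran from 11340 to 16604, 42512 to 43029 and 56183 to 66046 on the vector, BCR/ABL and imatinib arrays, and Tpsab1 lay below an intensity of 16 on both vector arrays. B cell markers were lower in BCR/ABL than in vector cells for 12 of 12 genes (median -2.85) and lower again with imatinib for 12 of 12 (median -0.97), with medians of -1.31 in the first comparison without vector replicate 1 and of -0.52 in the second without BCR/ABL replicate 2, and with sums of 5101 to 25426, 1363 to 2521 and 730 to 1839. Pax5 lay below 16 on all 6 arrays, Ms4a1 on the 4 BCR/ABL and imatinib arrays, and Cd79a and Rag1 on both imatinib arrays. Megakaryocyte markers were higher in BCR/ABL than in vector cells for 6 of 7 genes (median 1.07) and higher again with imatinib for 6 of 7 (median 0.80), with sums of 1878 to 2023, 3329 to 3952 and 6636 to 6989. The granulocyte marker Ltf lay at 11.71 and 7.29 on the vector arrays. Granulocyte markers were higher in BCR/ABL than in vector cells for 11 of 13 genes (median 1.24), but leaving out vector replicate 2 gave a median of 0.21, and leaving out the other vector array gave 2.07, with sums of 51325 to 82040, 80720 to 92696 and 89424 to 94225. T and NK cell markers were lower in BCR/ABL than in vector cells for 8 of 9 genes (median -0.96, or -0.44 without vector replicate 1) and lower with imatinib than in vector cells for 8 of 9 (median -0.84, or -0.17 without that array). Their sums were 1116 to 2042, 597 to 689 and 729 to 886. Cd3e, Cd3g, Cd2, Ncr1 and Cd4 lay below an intensity of 16 on both BCR/ABL arrays, and Ncr1 and Cd4 on both imatinib arrays. The 3-prime to 5-prime ratio of beta-actin was 1.62 to 1.81 on the vector arrays, 1.30 to 1.48 on the BCR/ABL arrays and 1.55 to 1.74 on the imatinib arrays. For Gapdh the same ranges were 1.37 to 1.56, 1.28 to 1.34 and 1.39 to 1.45.

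The promoter windows below are shown because they belong to the genes on which the contrasts below turn: Cycs, which had the smallest adjusted p of the 92, and Atp5g1, Atp5g2 and Atp5g3, a trio that encodes the same mature c subunit of the ATP synthase rotor and that differed in its values with imatinib. Sequences are RefSeq windows of 300 bases on GRCm38.p6, 250 before the gene start and 50 after, printed 5′ to 3′ on the gene's own strand, which is the minus strand for all 4. Capitals mark matches to any of 4 motifs searched on both strands: GCGCANGCG (the nuclear respiratory factor NRF1), CCGGAAG (ETS factors such as GABP), AAGATGGCG (YY1) and TGACGTCA (the cyclic AMP response element), the last added, and the NRF1 letters shortened by 1 base, after the windows had been read.
Cycs (chr6:50566520-50566819): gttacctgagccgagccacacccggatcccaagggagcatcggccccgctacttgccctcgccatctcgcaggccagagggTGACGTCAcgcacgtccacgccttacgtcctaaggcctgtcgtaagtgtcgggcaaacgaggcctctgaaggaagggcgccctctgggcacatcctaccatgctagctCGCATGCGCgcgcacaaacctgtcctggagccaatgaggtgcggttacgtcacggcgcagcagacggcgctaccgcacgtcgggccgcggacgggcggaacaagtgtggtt
Atp5g1 (chr11:96075582-96075881): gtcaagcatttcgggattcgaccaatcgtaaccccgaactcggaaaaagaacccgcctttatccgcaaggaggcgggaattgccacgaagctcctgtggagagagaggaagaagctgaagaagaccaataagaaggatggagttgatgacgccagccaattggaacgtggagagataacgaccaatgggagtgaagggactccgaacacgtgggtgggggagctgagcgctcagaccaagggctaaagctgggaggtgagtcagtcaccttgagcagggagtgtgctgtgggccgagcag
Atp5g2 (chr15:102670998-102671297): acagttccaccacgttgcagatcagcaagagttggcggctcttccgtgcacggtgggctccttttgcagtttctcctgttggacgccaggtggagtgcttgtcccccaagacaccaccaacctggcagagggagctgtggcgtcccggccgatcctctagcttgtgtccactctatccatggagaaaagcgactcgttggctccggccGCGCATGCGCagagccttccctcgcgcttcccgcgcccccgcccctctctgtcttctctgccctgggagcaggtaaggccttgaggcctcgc
Atp5g3 (chr2:73911277-73911576): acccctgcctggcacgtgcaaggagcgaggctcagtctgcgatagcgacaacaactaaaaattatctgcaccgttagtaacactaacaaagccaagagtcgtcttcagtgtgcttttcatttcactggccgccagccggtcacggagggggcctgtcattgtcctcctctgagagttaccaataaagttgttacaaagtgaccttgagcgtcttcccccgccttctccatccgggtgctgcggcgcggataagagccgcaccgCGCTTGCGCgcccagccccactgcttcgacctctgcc

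The Cycs window held TGACGTCA from 169 bases and the NRF1 motif from 61 bases before the gene start. Atp5g2 held the NRF1 motif from 42 bases before the start, on both strands, and Atp5g3 from 13 bases after it, while no motif was found in the Atp5g1 window. A window was listed for 75 of the 92 genes. The NRF1 motif was found in 20 of the 75 (26.7%), against 6.47% of 27025 promoter windows and 10.6% of the 14369 whose gene is on the array. The ETS motif was found in 18 (24%, against 9.12% and 13.8%), the YY1 motif in 6 (8%, against 1.49% and 2.35%) and TGACGTCA in 4 (5.33%, against 1.88% and 2.69%): Cycs, Ndufa10, Ndufb2 and Uqcrfs1. TGACGTCA reads the same on both strands and an NRF1 match can overlap its own reverse, so each window was counted once per motif. The median difference between imatinib and BCR/ABL cells was -0.23 for genes with the NRF1 motif and -0.19 for those without it, and -0.28 with and -0.19 without the ETS motif. It was -0.21 both with and without the YY1 motif, and -0.41 for the 4 genes with TGACGTCA against -0.19 for the rest. TGACGTCA was added and the NRF1 letters were shortened after the windows had been read, so their shares and medians are not an independent check. Matches describe the letters of these windows and do not show binding.

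The first comparison asked whether BCR/ABL cells differed from vector cells. The respiratory chain transcripts lay at nearly the same level in both. The median difference over the 92 genes was 0.03, with 75 higher and 17 lower, against a median of 0.01 over all genes. In limma 0 of 92 passed an adjusted p of 0.05, where 0.0613% of all probe sets were called, and at an unadjusted p under 0.05 there were 2 higher and 2 lower, where 7.16% and 5.55% of all genes did so. The smallest adjusted p of a member was 0.271. The 2 groups did not overlap for 25 genes that were higher, or 27.2%, close to the 23.9% of all genes. For genes that were lower it was 6, or 6.52%, against 20.1% of all genes. The 95% interval of the difference lay within -0.5 and 0.5 for 74 of the 92 and within -1 and 1 for 86. Without vector replicate 1 the median was 0.07, and without vector replicate 2 it was 0.02 with 37 genes lower. Aligning the array medians instead moved the median of all genes to 0.20 and that of the 92 to 0.25. In bulk samples such as these, fewer cells of a type and less RNA per cell cannot be told apart.

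The next question was how BCR/ABL cells from mice given imatinib differed from untreated BCR/ABL cells. Here most respiratory chain transcripts were lower, each by a small amount: 82 of 92 were lower and 10 higher, and the median difference was -0.19 against -0.01 over all genes. In limma 0 of 92 passed over all probe sets, as did 0% of all probe sets, and the smallest adjusted p of a member was 0.102. At an unadjusted p under 0.05, 41 of the 92 were lower, or 44.6%, and 2 higher, against 9.13% and 7.88% of all genes. The 2 imatinib arrays lay below both BCR/ABL arrays for 68 of the 92, or 73.9%, where 26.7% of all genes did so. They lay above for 7, or 7.61%, against 24.8% of all genes. Among the 9685 genes at level 7 or more, 31.8% lay below and 30.3% above, against 76.5% and 5.88% of the 85 members there. At an unadjusted p under 0.05, 13.4% of these 9685 genes were lower and 11.6% higher, against 45.9% and 2.35% of the 85. Across 15 settings of the processing, the median ran from -0.54 to -0.17 and between 78 and 89 genes were lower. The lowest value came from aligning the array medians, which moved the median of all genes to -0.27. Then 20 of the 92, or 21.7%, were called lower, among 1200 or 3.34% of all probe sets.

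Imatinib cells were also set against vector cells, a comparison that shares its arrays with the other two. The median difference was -0.14, against -0.001 over all genes, with 82 lower and 10 higher. Limma passed 0 of 92, where 0.0446% of all probe sets were called, and the smallest adjusted p of a member was 0.0805, that of Cycs. At an unadjusted p under 0.05 there were 30 lower and 2 higher, against 7.7% and 9% of all genes. The groups did not overlap for 56 lower genes, or 60.9%, against 22.3% of all genes, and for 4 higher ones, or 4.35%, against 21.9%.

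**Figure D1:**
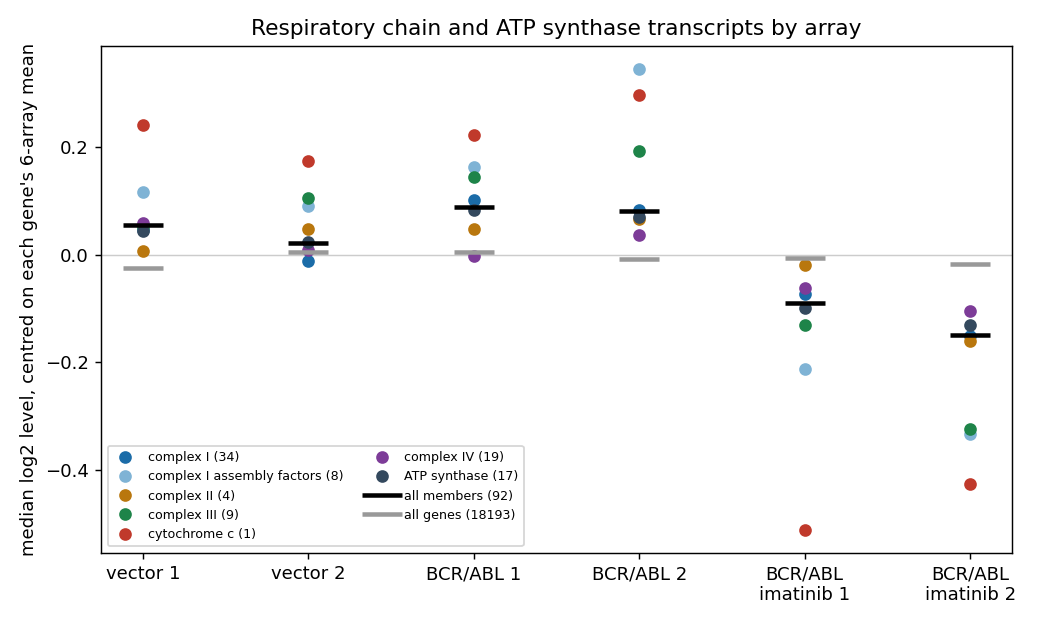
Median log2 level of each complex on each of the 6 arrays, after centring every gene on its own mean over the arrays; black bars are the median of all 92 genes and grey bars that of all 18193 genes. The 92 genes lay at -0.09 and -0.15 on the imatinib arrays, at 0.09 and 0.08 on the BCR/ABL arrays and at 0.06 and 0.02 on the vector arrays, while all genes stayed between -0.02 and 0.01.

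The array medians place the imatinib arrays below the other 4 for every complex drawn, with the widest gap in cytochrome c and the complex I assembly factors and the narrowest in complex II. Cytochrome c is a single gene, so its points carry the error of 1 probe set.

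**Figure D2:**
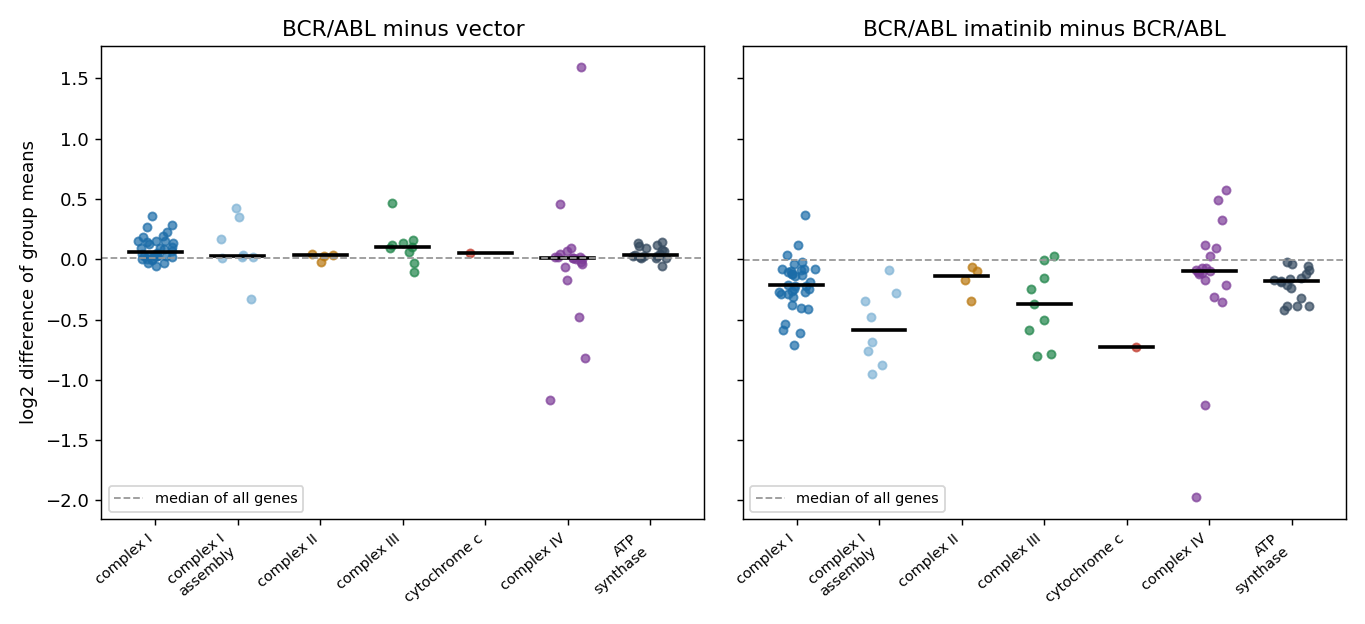
Log2 difference of each gene (points) by complex, for BCR/ABL minus vector and for BCR/ABL imatinib minus BCR/ABL; black lines are medians and the dashed line is the median of all genes. In the right panel the medians ran from -0.09 in complex IV to -0.73 for cytochrome c, and the points furthest from 0 in both panels belong to complex IV.

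Complex I receives electrons from NADH through a flavin and a chain of iron-sulfur clusters. Its 34 subunits had a median difference of -0.22 with imatinib, with 31 lower and 3 higher. The arrays did not overlap for 27 of the lower ones (79.4% of the 34), against 26.7% of all genes. Against vector, BCR/ABL cells had a median of 0.06, and imatinib cells one of -0.10. Ndufs1, an iron-sulfur subunit of the electron path, had the lowest difference with imatinib. Its levels were 11.15 and 11.16 on the vector arrays, 11.29 and 11.41 on the BCR/ABL arrays and 10.60 and 10.68 on the imatinib arrays. Both imatinib arrays lay below the other 4, and the difference was -0.71 (SE 0.10, adjusted p = 0.108), a level 38.9% lower. Against vector it was -0.51 (adjusted p = 0.162) with imatinib and 0.20 (adjusted p = 0.526) without.

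Ndufc1, a small accessory subunit chosen after its values were seen, repeated most closely among the subunits with large differences. It lay at 12.84 and 12.87 on the vector arrays, 12.95 and 13.04 on the BCR/ABL arrays and 12.38 and 12.43 on the imatinib arrays. The groups were well separated, with a difference of -0.59 (SE 0.07, adjusted p = 0.108). A further Ndufc1 probe set gave -0.65. With the probe sets below the 50th percentile of brightness left out before the fit, limma called Ndufc1 lower with imatinib (adjusted p = 0.028) and lower than vector (adjusted p = 0.0255).

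The subunits that hold the redox centres differed less than Ndufs1. Ndufv1, which binds the flavin and NADH, had a difference of -0.26 (adjusted p = 0.542), and its 2 vector arrays, at 11.90 and 11.52, were further apart than the pair of either other group. Its iron-sulfur partner Ndufv2 differed by -0.22 (adjusted p = 0.376), Ndufs7 by -0.25 (adjusted p = 0.319) and Ndufs8 by -0.27 (adjusted p = 0.292). Ndufs8 also had the lowest complex I difference between BCR/ABL and vector cells, -0.05 (adjusted p = 0.878). These core subunits were thus lower with imatinib by a similar small amount, none past the threshold. Ndufs3, of the same arm, differed by -0.13 (adjusted p = 0.566), and Ndufs4, an accessory subunit whose loss causes encephalopathy in mice, by -0.13 (adjusted p = 0.736).

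Among accessory subunits, Ndufs5 differed by -0.61 (adjusted p = 0.153), Ndufb2 by -0.54 (adjusted p = 0.139) and Ndufab1, the mitochondrial acyl carrier protein, by -0.41 (adjusted p = 0.156). Ndufb2 lay at 11.29 and 11.32 on the BCR/ABL arrays and at 10.69 and 10.85 on the imatinib arrays, with no overlap. Ndufa5 differed by -0.38 (adjusted p = 0.18), Ndufa1 by -0.31 (adjusted p = 0.324), Ndufa12 by -0.29 (adjusted p = 0.213) and Ndufb6 by -0.29 (adjusted p = 0.255). Ndufa10 had the highest complex I difference between BCR/ABL and vector among genes at level 7 or more. It lay at 11.75 and 11.67 on the vector arrays, 12.02 and 11.97 on the BCR/ABL arrays and 11.81 and 11.64 on the imatinib arrays, so that only the BCR/ABL arrays stood higher, by 0.28 (SE 0.09, adjusted p = 0.368), and imatinib cells were within 0.01 of vector.

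On the probe sets used, other bright subunits stayed close together on all arrays. For Ndufa13, also known as GRIM-19, the difference with imatinib was -0.04 (95% interval -0.25 to 0.17), for Ndufa7 -0.02 (-0.27 to 0.23), for Ndufb3 -0.08 (-0.24 to 0.09) and for Ndufb10 -0.10 (-0.25 to 0.05). These intervals leave room for differences of the size of the complex I median. Further Ndufa7 probe sets gave -0.02, -0.18, -0.24 and -0.35, and the mean over its 5 probe sets was -0.16. The 3 subunits that were higher with imatinib were Ndufa6, Ndufb11 and Ndufb4. Ndufa6, an accessory subunit of the LYR family, lay at 10.97 and 10.73 on the vector arrays, 10.86 and 10.82 on the BCR/ABL arrays and 11.23 and 11.18 on the imatinib arrays. Its imatinib arrays were above the other 4, with a difference of 0.37 (SE 0.12, adjusted p = 0.248). Ndufb11, which had the brightest complex I probe set, differed by 0.12 (adjusted p = 0.416) and its imatinib arrays also lay above the rest. Ndufb4 was read near the floor, between 4.11 and 5.05, and gave 0.03 with overlapping arrays.

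Assembly factors build complex I in steps and are not part of the finished enzyme. All 8 named Ndufaf were lower with imatinib than without, with a median of -0.58. The arrays did not overlap for 7 (87.5%), against 26.7% of all genes. All 8 were also lower with imatinib than in vector, with a median of -0.37, while BCR/ABL against vector gave 0.03. Ndufaf4, which acts early in assembly together with Ndufaf3, lay at 10.89 and 10.83 on the vector arrays, 11.19 and 11.23 on the BCR/ABL arrays and 10.62 and 9.91 on the imatinib arrays. Its BCR/ABL arrays were the highest and its imatinib arrays the lowest and most spread, with a difference of -0.95 (SE 0.23, adjusted p = 0.164). The other probe set of Ndufaf4 gave -1.14 (adjusted p = 0.108), and Ndufaf3 had -0.48 (adjusted p = 0.251).

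Ndufaf6 lay at 9.31 and 9.25 on the vector arrays, 9.18 and 9.40 on the BCR/ABL arrays and 8.46 and 8.37 on the imatinib arrays. Its imatinib arrays stood well below the rest, by -0.88 (SE 0.19, adjusted p = 0.141) against BCR/ABL and by -0.87 (adjusted p = 0.178) against vector. Ndufaf2, a relative of the subunit Ndufa12 that was chosen after its values were seen, lay at 11.12 and 11.36 on the vector arrays, 11.15 and 11.37 on the BCR/ABL arrays and 10.39 and 10.60 on the imatinib arrays, a difference of -0.76 (SE 0.15, adjusted p = 0.123). Ndufaf5, which modifies a core subunit, gave -0.69 (adjusted p = 0.422), and its vector arrays, at 8.72 and 9.64, were the most discordant of any gene here at level 7 or more. Ndufaf1 differed by -0.34 (adjusted p = 0.353) and the methyltransferase Ndufaf7 by -0.28 (adjusted p = 0.436). Ndufaf8 had the brightest probe set of the 8 and stood apart from the others: it was lower in BCR/ABL than in vector cells, -0.33 (adjusted p = 0.505), and differed by only -0.09 (adjusted p = 0.869) with imatinib.

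Complex II, succinate dehydrogenase, links the tricarboxylic acid cycle to the chain and is encoded wholly in the nucleus. Its 4 genes had a median difference of -0.14 with imatinib, with 4 of 4 lower, and of 0.03 in BCR/ABL cells against vector. Sdha, the flavoprotein, lay at 12.02 and 12.17 on the vector arrays, 12.07 and 12.16 on the BCR/ABL arrays and 12.08 and 12.02 on the imatinib arrays, and all groups overlapped (difference -0.07 (SE 0.09, adjusted p = 0.807)). Sdhb, the iron-sulfur subunit, was the lowest of the 4 with imatinib, at 11.59 and 11.43 on the vector arrays, 11.52 and 11.58 on the BCR/ABL arrays and 11.30 and 11.11 on the imatinib arrays. Its imatinib arrays were below the other 4, with a difference of -0.34 (SE 0.11, adjusted p = 0.246). The membrane anchors Sdhc and Sdhd differed by -0.18 (adjusted p = 0.527) and -0.10 (adjusted p = 0.679), less than 2 of their standard errors.

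Complex III had a median difference of -0.37 with imatinib over 9 genes, 8 of them lower, and of 0.11 in BCR/ABL cells against vector. With imatinib all 9 lay below vector, with a median of -0.31. Cyc1, cytochrome c1, carries the haem that hands electrons to cytochrome c. It lay at 11.46 and 11.33 on the vector arrays, 11.39 and 11.67 on the BCR/ABL arrays and 10.88 and 10.59 on the imatinib arrays. Both imatinib arrays were below the other 4, although each pair of arrays spread by 0.1 to 0.3, and the difference was -0.79 (SE 0.15, adjusted p = 0.123), a level 42.1% lower. Against vector it was -0.65 (adjusted p = 0.193).

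Some small subunits of the complex, Uqcr11, Uqcr10 and Uqcrq, gave differences of a similar order. Uqcr11 lay at 11.50 and 11.44 on the vector arrays, 11.52 and 11.61 on the BCR/ABL arrays and 10.99 and 10.97 on the imatinib arrays, with close replicates and a difference of -0.58 (SE 0.09, adjusted p = 0.11). Uqcr10 differed by -0.50 (adjusted p = 0.127). Uqcrq had the lowest difference of the complex, -0.80 (SE 0.21, adjusted p = 0.182), and also the highest of the complex between BCR/ABL and vector cells, 0.46 (adjusted p = 0.477). Its imatinib arrays, at 10.16 and 9.65, reached into the range of the vector arrays, at 10.08 and 10.40. The core proteins Uqcrc1 and Uqcrc2 differed by -0.37 (adjusted p = 0.201) and -0.25 (adjusted p = 0.261), and the Rieske iron-sulfur protein Uqcrfs1 by -0.15 (adjusted p = 0.662) with overlapping arrays. The 2 brightest probe sets of the complex showed almost no difference. Uqcrb lay between 13.14 and 13.35 on all arrays and gave -0.01 (95% interval -0.20 to 0.18). The hinge protein Uqcrh lay between 12.94 and 13.04 and gave 0.03 (-0.13 to 0.18).

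Cytochrome c, encoded by Cycs, shuttles electrons between complexes III and IV and triggers caspase activation when it is released from mitochondria. Its levels were 12.74 and 12.68 on the vector arrays, 12.73 and 12.80 on the BCR/ABL arrays and 11.99 and 12.08 on the imatinib arrays. The 4 untreated arrays lay within 0.13 of each other, and both imatinib arrays lay more than 0.5 below them. The difference from BCR/ABL cells was -0.73 (SE 0.07, adjusted p = 0.102), a level 39.7% lower, and the difference from vector was -0.68 (SE 0.07, adjusted p = 0.0805). BCR/ABL against vector gave 0.05 (95% interval -0.13 to 0.23). A further bright Cycs probe set gave -0.72 with imatinib and another -0.35, so the probe sets shared the direction and differed in size. Limma called Cycs lower with imatinib than in BCR/ABL cells when probe sets under the 30th or 50th percentile were left out (adjusted p = 0.0322 and 0.0233). It was likewise lower than vector (adjusted p = 0.0158 and 0.0122).

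**Figure D3:**
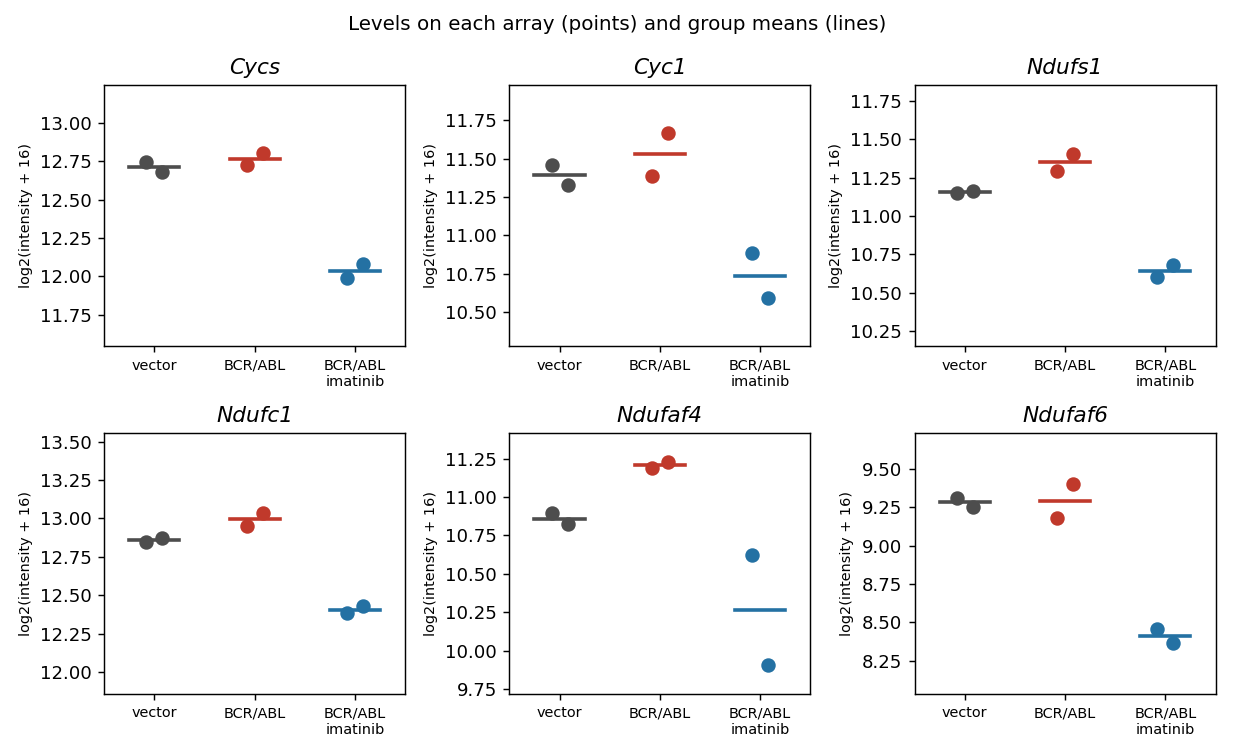
Log2(intensity + 16) of 6 genes on each array (points) with group means (lines); all panels span the same range of log2 units. For Cycs the imatinib arrays lay at 11.99 and 12.08 against 12.73 and 12.80 in BCR/ABL, and for Ndufaf4 the 2 imatinib arrays, at 10.62 and 9.91, spread widely.

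Complex IV, cytochrome c oxidase, has several subunits with paralogs that differ between tissues. Its 19 genes had the smallest median difference with imatinib, -0.09, with 13 lower and 6 higher, and the widest range, from -1.97 to 0.58. These figures include Cox4i2, Cox7a1, Cox7b2, Cox8b, Cox8c and Ndufa4l2, whose mean levels were under 7. The median is the value of Cox8c and the lowest difference that of Cox4i2, and Cox7b2 and Cox8b are among the higher genes. BCR/ABL against vector gave a median of 0.01, with 11 higher and 8 lower, and imatinib against vector one of -0.10. Several common subunits had small differences on the probe set used. Cox4i1, the usual form of the largest nuclear-encoded subunit, lay at 12.62 and 12.68 on the vector arrays, 12.60 and 12.66 on the BCR/ABL arrays and 12.70 and 12.61 on the imatinib arrays, and its difference with imatinib was 0.03 (95% interval -0.15 to 0.20). Cox5a, which lies beside it, differed by -0.21 (adjusted p = 0.306) and Cox5b by -0.07 (adjusted p = 0.759). Further bright probe sets gave -0.12 and -0.17 for Cox5a, and -0.22, -0.18 and -0.11 for Cox5b. Cox6c gave -0.10 (adjusted p = 0.769) and Ndufa4 -0.07 (adjusted p = 0.784). Cox7a2 had the brightest probe set of the complex and gave -0.12 (adjusted p = 0.401).

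Cox4i2, the alternative form of subunit 4 that is known to be induced by low oxygen, differed in the order of its groups. It lay at 6.32 and 6.06 on the vector arrays, 8.11 and 7.45 on the BCR/ABL arrays and 6.06 and 5.55 on the imatinib arrays. Both BCR/ABL arrays were above the other 4, by 1.59 (SE 0.43, adjusted p = 0.308) against vector, and the difference with imatinib was -1.97 (SE 0.43, adjusted p = 0.141). Its probe set was dim and its standard errors were wide. Cox7a1, a form known from heart and skeletal muscle, was also highest on the BCR/ABL arrays, at a dim level: 6.42 and 6.68 on the vector arrays, 7.11 and 6.91 on the BCR/ABL arrays and 5.91 and 5.70 on the imatinib arrays. Its difference with imatinib was -1.21 (SE 0.36, adjusted p = 0.219), while its partner Cox7a2 stayed between 13.26 and 13.42.

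Cox6a2, another muscle form, showed another order, at 8.26 and 8.55 on the vector arrays, 7.50 and 6.97 on the BCR/ABL arrays and 6.94 and 6.82 on the imatinib arrays. Vector arrays were above the other 4, with differences of -1.17 (adjusted p = 0.333) for BCR/ABL and -1.53 (adjusted p = 0.186) for imatinib against vector. Its common partner Cox6a1 gave 0.04 (adjusted p = 0.869) and -0.06 (adjusted p = 0.775). With imatinib against BCR/ABL, Cox6a1 gave -0.11, and -0.32 on its other probe set. Cox6b2, known from testis, was higher with imatinib, at 10.60 and 10.95 on the vector arrays, 10.80 and 10.76 on the BCR/ABL arrays and 11.22 and 11.33 on the imatinib arrays. Both imatinib arrays exceeded the other 4, by 0.49 (SE 0.14, adjusted p = 0.205), where Cox6b1 gave -0.09 (adjusted p = 0.619). The other Cox6b1 probe set gave -0.20.

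Cox7a2l, which helps to join complexes III and IV into supercomplexes, was also higher with imatinib. It lay at 12.44 and 12.70 on the vector arrays, 12.62 and 12.54 on the BCR/ABL arrays and 12.72 and 13.10 on the imatinib arrays, a difference of 0.33 (SE 0.15, adjusted p = 0.388), and its 2 other probe sets each gave 0.46. Cox7c gave 0.58 (adjusted p = 0.512) with imatinib and -0.82 (adjusted p = 0.437) between BCR/ABL and vector cells, with widely spread BCR/ABL arrays, at 7.49 and 8.15. Cox8a, the common form of subunit 8, differed by -0.31 (adjusted p = 0.284), and by -0.45 on a further bright probe set. Its muscle form Cox8b and testis form Cox8c lay near the floor, between 4.08 and 4.88, and gave 0.09 and -0.09. Cox7b2 and Ndufa4l2 likewise stayed between 4.01 and 4.55, so nothing can be read from their differences of 0.12 and -0.17. The differences between paralogs were not themselves tested.

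**Figure D4:**
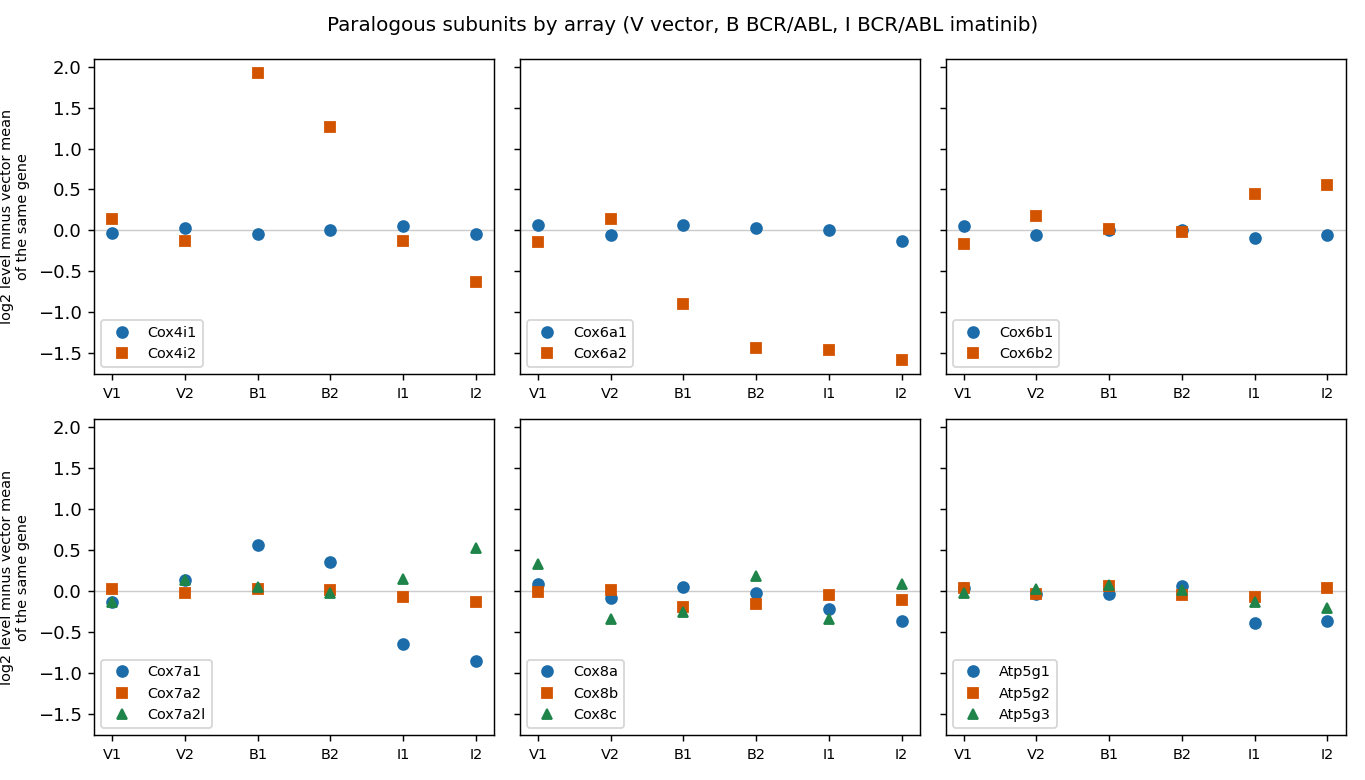
Level of each paralog on the 6 arrays, as the difference from the vector mean of the same gene on the log2 scale. Cox4i2 stood above its vector mean on both BCR/ABL arrays and Cox6a2 below its own on all 4 BCR/ABL and imatinib arrays, while Cox4i1, Cox6a1, Cox6b1 and Cox7a2 stayed near 0.

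The ATP synthase is a rotary enzyme whose catalytic head sits on a ring of c subunits in the inner membrane. Each of its 17 genes was lower with imatinib than in BCR/ABL cells, with a median of -0.18 and a range from -0.42 to -0.02. The arrays did not overlap for 15 (88.2%), against 26.7% of all genes. All 17 also lay below vector, with a median of -0.17, and BCR/ABL against vector gave 0.03. In the head and shaft, Atp5a1, the alpha subunit, had the brightest probe set and lay between 13.22 and 13.32 on all arrays (difference -0.06 (SE 0.06, adjusted p = 0.718)). The catalytic beta subunit Atp5b differed by -0.18 (adjusted p = 0.313), the shaft subunit gamma, Atp5c1, by -0.09 (adjusted p = 0.589) and delta, Atp5d, by -0.16 (adjusted p = 0.317). Atp5d also had the highest difference of the enzyme between BCR/ABL and vector cells, 0.14 (adjusted p = 0.45). Epsilon, Atp5e, the remaining piece of the shaft, differed more, by -0.39 (SE 0.08, adjusted p = 0.129), and lay at 12.46 and 12.33 on the vector arrays, 12.45 and 12.47 on the BCR/ABL arrays and 12.08 and 12.06 on the imatinib arrays.

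In the stalk that holds the head still, Atp5o gave -0.19 (adjusted p = 0.283), Atp5pb -0.12 (adjusted p = 0.469), Atp5h -0.04 (adjusted p = 0.846) and Atp5j -0.17 (adjusted p = 0.296). Atp5j was the 1 subunit that was lower in BCR/ABL than in vector cells, by -0.05. Among the small membrane subunits, Atp5l, which helps the enzyme to form dimers, lay at 12.04 and 11.99 on the vector arrays, 12.13 and 12.17 on the BCR/ABL arrays and 11.84 and 11.61 on the imatinib arrays. Its imatinib arrays were below the other 4 and further apart than the rest, with a difference of -0.42 (SE 0.10, adjusted p = 0.162). Its dimer partner Atp5k differed by -0.39 (adjusted p = 0.14), Atp5md by -0.32 (adjusted p = 0.168), Atp5j2 by -0.24 (adjusted p = 0.191) and Atp5mpl by -0.16 (adjusted p = 0.494).

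The genes for the c ring, whose promoter windows are printed above, differed among themselves. Atp5g1 lay at 12.45 and 12.37 on the vector arrays, 12.38 and 12.47 on the BCR/ABL arrays and 12.03 and 12.04 on the imatinib arrays. Its imatinib arrays were lower by -0.39 (SE 0.08, adjusted p = 0.124) than BCR/ABL and by -0.38 (adjusted p = 0.163) than vector, which was the lowest value of the enzyme in that comparison. Atp5g3 gave -0.21 (SE 0.06, adjusted p = 0.209), also without overlap. Atp5g2 lay at 12.24 and 12.16 on the vector arrays, 12.26 and 12.15 on the BCR/ABL arrays and 12.13 and 12.24 on the imatinib arrays, where all groups overlapped and the difference was -0.02 (95% interval -0.23 to 0.19). The interval for Atp5g1 was -0.57 to -0.20, and the difference between these genes was not tested.

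The median difference was smaller in ranges of brighter probe sets. With imatinib the median was -0.45 for the 14 genes at levels from 7 to 11, -0.29 for the 25 from 11 to 12, -0.13 for the 38 from 12 to 13 and -0.07 for the 8 above. Over all genes of the same ranges it was -0.01, 0.01, 0.01 and -0.01, so no range was lower for genes in general. Spread narrowed with brightness for all genes alike, from a median absolute difference of 0.32 in the lowest range to 0.07 in the highest. From the lowest range up, 11 of 14, 25 of 25, 35 of 38 and 7 of 8 members were lower. Over all genes the shares were 50.9%, 48.7%, 48.4% and 54.7%. The lowest range held every complex I assembly factor except Ndufaf8. It also held Cox7c, Cox6b2 and Ndufa6, which were higher with imatinib. Brightness and complex thus went together, and their parts in the medians were not told apart. The part of compression at the top of the range in the small differences of the brightest subunits, such as Uqcrb, Uqcrh and Atp5a1, was not tested.

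**Figure D5:**
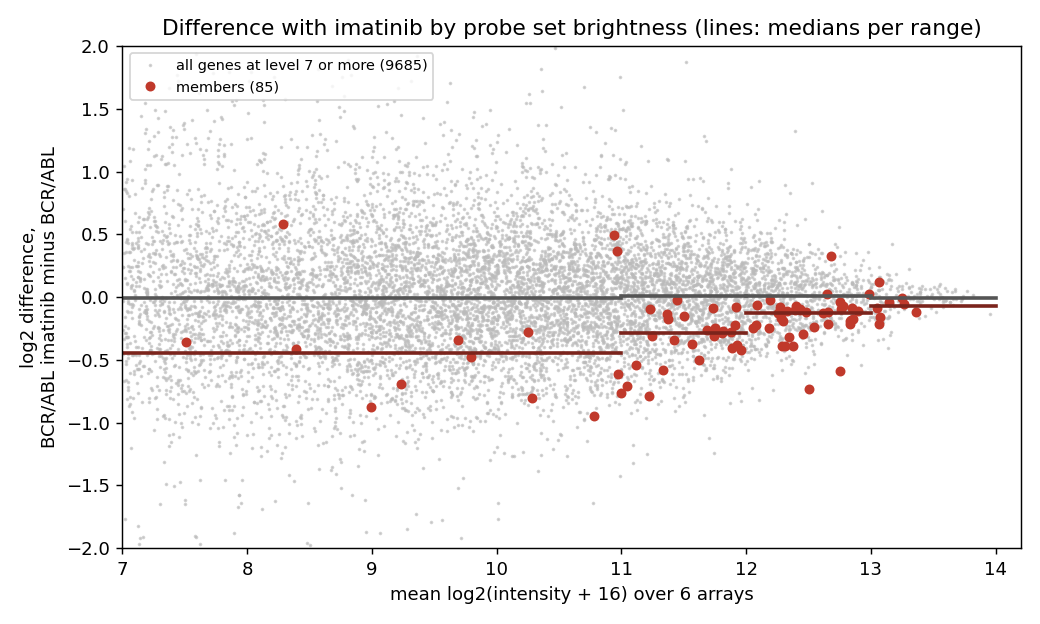
Log2 difference of BCR/ABL imatinib minus BCR/ABL against mean log2 level, for the 85 respiratory chain genes at level 7 or more (red) over all 9685 such genes (grey); lines are medians within 4 ranges of level. Red medians go from -0.45 in the lowest range to -0.07 in the highest, and grey medians stay between -0.01 and 0.01; 39 grey genes lie outside the vertical axis.

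Genes with several probe sets gave a check on the choice of probe set. Of 67 further probe sets of these genes at level 7 or more, 59 were lower with imatinib, with a median of -0.20, and 62 shared the sign of the probe set used. Averaging the probe sets of a gene moved the difference with imatinib by over 0.2 for 7 of the 52 genes with several. Uqcrq went from -0.80 to -0.24, Ndufb2 from -0.54 to -0.09, Uqcr10 from -0.50 to -0.92, Ndufa10 from -0.27 to -0.60, Ndufb6 from -0.29 to -0.51 and Cycs from -0.73 to -0.52. Atp5c1 turned from -0.09 to 0.45, and Atp5g2, Ndufaf8, Ndufb9, Sdha and Uqcrh also changed sign, at values of at most 0.13 from 0. The median of complex III was then -0.24, and the ATP synthase and the complex I assembly factors were no longer lower for every gene. Of the probe sets used, 10 had an identifier ending in _x_at and 10 in _s_at, types whose probes can match more than 1 transcript, so values of paralogs and copies may be mixed there.

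Other genes of the pathway were read from lists of assembly factors, tricarboxylic acid cycle enzymes, regulators, carriers and glycolysis, and limma called 0 members of any of them in any comparison. Assembly factors outside the naming rule had a median of -0.35 with imatinib over 41 genes, 28 lower and 13 higher. At an unadjusted p under 0.05, 14 were lower (34.1%) and 1 higher (2.44%), against 9.13% and 7.88% of all genes. Ecsit, which helps to assemble complex I, gave -0.97 (adjusted p = 0.146), the haem synthesis gene Cox10 -0.78 (adjusted p = 0.38) and Coa4, a complex IV factor, 0.76 (adjusted p = 0.467). Coa4 was dim, at 4.89 and 5.67 on the BCR/ABL arrays and 6.32 and 5.77 on the imatinib arrays, with an SE of 0.41. The tricarboxylic acid cycle and pyruvate dehydrogenase had a median of -0.26 over 17 genes, 16 of them lower. Of the 17, 7 (41.2%) were lower at an unadjusted p under 0.05, against 9.13% of all genes. Pdhx, a structural component of pyruvate dehydrogenase, gave -0.77 (adjusted p = 0.235), Idh3a, of isocitrate dehydrogenase, -0.68 (adjusted p = 0.26) and Dlat, the dehydrogenase's acetyltransferase, -0.57 (adjusted p = 0.268).

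Regulators of mitochondrial gene expression did not share 1 direction with imatinib: 10 of 17 were lower, with a median of -0.15. Nrf1, the factor that binds the first motif above, lay at 8.66 and 8.43 on the vector arrays, 8.08 and 8.52 on the BCR/ABL arrays and 7.37 and 7.57 on the imatinib arrays, a difference of -0.83 (SE 0.29, adjusted p = 0.269). Pprc1, a coactivator of the PGC-1 family, gave -0.65 (adjusted p = 0.165) and the nuclear receptor Esrra 0.61 (adjusted p = 0.591). Carriers and channels had a median of -0.12, with 10 of 12 lower. Among them the aspartate and glutamate carrier Slc25a13 gave -0.74 (adjusted p = 0.157), the uncoupling protein gene Ucp3, which lay near the floor on all arrays so that nothing can be read from its value, 0.41 (adjusted p = 0.48) and the ATP and ADP exchanger Slc25a4 -0.29 (adjusted p = 0.256). Medians of these 4 lists in BCR/ABL cells against vector were 0.04, 0.07, 0.00078 and 0.08.

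Glycolysis, the route to ATP outside mitochondria, had another pattern. In BCR/ABL cells against vector its median was 0.34, where the respiratory chain had 0.03. Of 18 genes 15 were higher, and 9 (50%) were so at an unadjusted p under 0.05, against 7.16% of all genes. With imatinib the glycolysis median was -0.17, with 12 of 18 lower. Slc16a3, which exports lactate, gave 2.59 (adjusted p = 0.119) and then -1.15 (adjusted p = 0.246), the phosphofructokinase Pfkp 0.72 (adjusted p = 0.356) and -0.72 (adjusted p = 0.242), the glucose transporter Slc2a1 0.71 (adjusted p = 0.195) against vector and the enolase Eno2 2.02 (adjusted p = 0.123) with imatinib. Mitochondrial ribosomal proteins translate the subunits encoded in mitochondrial DNA. Their 76 genes had a median of 0.16 in BCR/ABL cells against vector and of -0.46 with imatinib. With imatinib 74 of 76 were lower, and the arrays did not overlap for 68 (89.5%), against 26.7% of all genes. Values of the respiratory chain were thus smaller in both comparisons. The difference between these lists was not tested, and the lists differ in brightness.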

How the data were processed

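The table was used as deposited: linear intensity values, 1 per probe set and array, made with Affymetrix Expression Console and MAS5 per the submitters' processing notes. On each of the 6 deposited arrays the mean after removal of 2% of values at each end was 500, and median intensity ran from 35.6 to 57.2. The labels' design text names a whole-transcript array, but the probe set identifiers and their annotation are those of a 3-prime expression array of the same maker. Symbols came from the platform annotation, and all 92 genes were found in a RefSeq table of GRCm38.p6 by Entrez identifier, with 0 symbols changed. Probe sets with several symbols were not named, of which 10 matched the naming rule.

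Of 45101 probe sets, 64 controls were left out and 35877 with a symbol were tested, dim ones included. Values were transformed as log2(intensity + 16), quantile normalized, and fitted with limma 3.58.1 in R 4.3.3 (lmFit, eBayes with trend=TRUE) in 1 model of 6 arrays, two-sided, with Benjamini-Hochberg adjustment and a threshold of 0.05. The fit had 3 residual and 2.97 prior degrees of freedom. It was tested on simulated data with 200 probe sets changed between BCR/ABL and vector. In these simulated data the fit recovered 2% of changes of 1 log2 unit, 54.5% of changes of 2 and 92% of changes of 4. Smaller changes, of the size seen in most members, were not simulated, so a member that was not called may still differ. Detection calls were not used here. The number of arrays limits the precision.

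The members and lists were chosen with earlier results of these data known. Named were all genes past the threshold, complex II, Cycs, Cyc1, paralog sets, and in the larger complexes the genes with the highest and lowest difference and the brightest probe set. Further members were named after their values were seen, to account for each complex. From each other list up to 3 genes with the largest difference were named. None of the 13 listed subunits encoded in mitochondrial DNA was measured by a probe set with 1 symbol. Alternatives covered the added constant, normalization, filters, the variance prior, the replicate number as a block, averaging of probe sets and leaving out each array.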

Additional observations from a re-analysis of the deposited data

How the results depend on the processing

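The lower median with imatinib kept its sign under all 15 settings run for it, from -0.54 to -0.17, and from -0.22 to -0.17 when each array was left out in turn. Aligning array medians moved the median of all genes itself, by 0.20 in BCR/ABL against vector, -0.27 in imatinib against BCR/ABL and -0.09 in imatinib against vector, and the medians of the 92 genes were then 0.25, -0.54 and -0.30, or 0.05, -0.26 and -0.21 relative to all genes. Under that setting 20 of the 92 were called lower with imatinib against BCR/ABL and 1, Cycs, against vector, among 1200 and 275 probe sets, with 298 in BCR/ABL against vector. Those 20 calls came with the shift of all genes. The fit then also had 8.93 prior degrees of freedom, against 2.97 in the main fit. The part of each in the calls was not tested. Groups did not overlap, by an alternative chosen after seeing the data, for 78 higher (84.8%) and 3 lower genes in BCR/ABL against vector, where 43.0% and 7.78% of all genes did so, for 1 higher gene in imatinib against BCR/ABL (all genes 9.23%) and for 2 higher genes in imatinib against vector (14.9%). With the deposited scaling alone the corresponding counts were 14 lower genes (15.2%) in BCR/ABL against vector, below the 22.9% of all genes, and 2 higher genes in imatinib against vector (all genes 25.5%), whose median was -0.18. The lower counts of 68 and 56 became 69 and 66, where 21.3% and 19.4% of all genes did so, and with array medians 85 and 72, where 49.9% and 27.1% did so.

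Members were also called after filters on brightness. Above the 30th percentile 2 were called in each comparison with imatinib, Cycs and Ndufc1, among 142 and 188 probe sets, with 189 in BCR/ABL against vector. Above the 50th percentile it was again 2 in each, the same genes, among 211 and 181, with 132. With 1 as the added constant 83, 3 and 78 probe sets were called in the 3 comparisons in the order above, and 1 member, Cycs against vector (adjusted p = 0.0399). With 64 the count against vector with imatinib was 3. The variance prior not tied to signal gave 0 probe sets in BCR/ABL against vector and 0 in imatinib against vector, where the main counts were 22 and 16, and the robust prior gave 42 and 28. The cause of these changes in the counts was not tested for any setting.

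Leaving out 1 array moved these 2 counts between 0 and 38 and between 0 and 50, with 0 members called each time. The medians of the 92 genes then ran from 0.021 to 0.073 and from -0.18 to -0.10. With the replicate number as a block, 22, 0 and 9 probe sets and 0 members were called. Deviations of same-numbered arrays correlated at -0.08 for vector with BCR/ABL, 0.16 for vector with imatinib and 0.15 for BCR/ABL with imatinib. With 2 arrays a group, these values cannot show whether same-numbered arrays share more than a number. Of 1947 recomputed values of single genes 105 changed sign, none of them called. Signal near the floor limits what dim probe sets can show, and compression of the brightest was not tested.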
